A study of Mus musculus with 20 samples.

Results

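The genes described here are the 49 mouse genes that encode subunits, assembly chaperones, activators or regulators of the proteasome and carry a Psma, Psmb, Psmc, Psmd, Psme, Psmf or Psmg symbol. They were taken by symbol from the deposited tables, which hold 53722 rows for oocytes and 55291 rows for spermatogonia, and every one of the 49 was listed in both. Rows marked as pseudogenes by the ending -ps were left out. The rule reads the symbol alone, though the gene set was proposed with earlier results of these data known. By role they were 7 alpha and 7 beta subunits of the core particle, 3 immunosubunits, 2 thymus or testis subunits, 6 base ATPases, 3 base scaffold or receptor subunits, 8 lid subunits, 7 assembly chaperones, 5 activators and 1 further regulator.

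The study deleted Chd4, which encodes a chromatin-remodelling ATPase of the NuRD complex, in germ cells of mice of a mixed C57BL/6, 129S1/Sv and FVB/NJ background. Non-growing oocytes (NGO) of ovaries at postnatal day 1 (P1) and postnatal day 5 (P5) and undifferentiated spermatogonia of testes at postnatal day 3 (P3) came from knockouts termed DcKO (Chd4 f/-; Ddx4-Cre Tg/+) and from controls termed Dctrl (Chd4 f/+; Ddx4-Cre Tg/+). The Dctrl controls therefore carried the Cre transgene and 1 floxed Chd4 allele. NGO and growing oocytes (GO) at postnatal day 10 (P10) came from knockouts termed GcKO (Chd4 f/f; Gdf9-iCre Tg/+) and from controls termed Gctrl, which were Chd4 f/f and carried no Cre. Ddx4-Cre is driven by a promoter active in germ cells and Gdf9-iCre by a promoter active in oocytes of small follicles. Each of the 10 groups had 2 libraries, 20 in all. The labels do not say whether the 2 libraries of a group came from separate animals, so each p-value rests on the spread among libraries, which may be partly technical.

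The proteasome is the main protease of the cytosol and nucleus for proteins tagged with ubiquitin. Its core particle is a barrel of alpha and beta rings with the protease sites on 3 beta subunits. The regulatory particle on its ends recognises ubiquitin, removes it and unfolds the substrate, its base through a ring of ATPases and its lid through a deubiquitinase. Activators of the Psme family can cap the core in place of the regulatory particle, immunosubunits replace the catalytic beta subunits in immune cells, and Psma8 replaces Psma7 in meiotic male germ cells. Oocytes depend on the proteasome to progress through meiosis.

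Values are in TPM, a length-scaled share of the library's transcripts, which sets genes of 1 library on a common scale. They fit the length of all annotated exons of a gene, 3421 bases for Psmb7 and 1204 for Psmb2. Where the expressed transcript is shorter than that, its TPM is too low beside other genes. The part of this in the differences between genes was not tested. Multiplied by that length, the values corresponded to about 15330000 to 30070000 counted reads per library, a depth that limits the lowest values most. Chd4 itself was at 24.7 and 31.2 TPM in P1 controls against 4.32 and 1.9 in knockouts, at 14.5 and 17.9 against 8.28 and 4.94 at P5, and at 249 and 286 against 40.2 and 51.7 in spermatogonia. At P10 it was low throughout, at 1.63 and 1.85 against 1.34 and 0.247 TPM in NGO and at 1.56 and 2.96 against 0.631 and 1.54 TPM in GO. Which exons are deleted is not given in the sources used here, so a whole-gene value is a limited check of the labels. The 8 markers of undifferentiated spermatogonia were all at 1 TPM or more in each spermatogonial library, and 6 or 7 of 7 oocyte markers were in each oocyte library. In GO the summed oocyte markers were at 50206 to 51588 TPM in controls and at 102868 to 113259 TPM in knockouts, and 8 markers of gonadal supporting cells summed to 0.255 to 0.583 TPM in controls and to 6.51 to 26.5 TPM in knockouts. In GO 5 endothelial markers summed to 2.96 to 6.64 TPM in controls and to 2.82 and 104 TPM in the 2 knockout libraries. The supporting cell sum was 75.4 to 130.5 TPM in P1 controls and 9.57 to 71.0 TPM in P1 knockouts. At P5 it was 7.88 to 8.52 TPM and 37.2 to 58.0 TPM. In spermatogonia the supporting cell sum was 131 to 165 TPM in controls and 386 to 541 TPM in knockouts. That of 11 blood and immune cell markers was 78.7 to 104 TPM and 292 to 342 TPM. The endothelial sum there was 61.4 to 77.0 TPM and 137 to 147 TPM, and that of 6 stromal markers was 7.7 to 11.4 TPM and 34.0 to 38.2 TPM. The part of these markers in the proteasome results was not tested. In samples of many cells, fewer cells of a type and less RNA per cell cannot be told apart.

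Promoters of 41 of the 49 genes were found among RefSeq promoters of mouse assembly GRCm38.p6, each 250 bases before and 50 bases after the start. The 4 stretches shown here lie upstream of genes named in the P10 results. They are the catalytic subunits Psmb5, lower in both kinds of P10 knockout oocyte, and Psmb6, which passed the threshold in neither, and the ubiquitin receptor Psmd4 and the base chaperone Psmd10, both higher in knockout GO. Sequences run 5′ to 3′ on the gene's strand, and the base just before the start is -1.
Psmb5, chr14:54618023-54618122, minus strand: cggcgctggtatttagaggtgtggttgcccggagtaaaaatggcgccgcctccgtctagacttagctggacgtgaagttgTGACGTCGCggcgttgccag
Psmb6, chr11:70525257-70525356, plus strand: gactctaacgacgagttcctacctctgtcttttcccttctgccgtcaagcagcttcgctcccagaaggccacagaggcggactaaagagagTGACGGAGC
Psmd4, chr3:95042615-95042764, minus strand: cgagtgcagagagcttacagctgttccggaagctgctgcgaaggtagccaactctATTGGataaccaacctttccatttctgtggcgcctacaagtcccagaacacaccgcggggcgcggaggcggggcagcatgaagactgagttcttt
Psmd10, chrX:140956729-140956878, minus strand: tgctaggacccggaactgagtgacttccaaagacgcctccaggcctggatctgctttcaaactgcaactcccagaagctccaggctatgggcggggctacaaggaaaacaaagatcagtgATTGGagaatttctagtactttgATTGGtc

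Capitals in Psmb5 and Psmb6 mark matches to TGACNNNGC, the core letters of the antioxidant response element, which factors of the NRF family are known to bind at proteasome genes. The match lay at -47 to -39 in Psmb5 and at -9 to -1 in Psmb6. Searched on both strands, these letters were in 6 member genes (Psmb5, Psmb6, Psmd9, Psmd12, Psmc6 and Psme4), or 13.6% of the 44 member promoters, beside 12.4% of all 32851 promoters of that length. Capitals in Psmd4 and Psmd10 mark CCAAT on the other strand, read here as ATTGG, at -95 to -91 in Psmd4 and at -47 to -43 and -24 to -20 in Psmd10. CCAAT was in 31.8% of member promoters and 37.4% of all. Of the 7 alpha subunits, 5 had it (Psma1, Psma2, Psma3, Psma6 and Psma7). GAAA followed after any 2 bases by another GAAA, letters of the interferon response element, was in 11.4% of member promoters (Psme1, Psmd9, Psmg4, Psmd4 and Psmb3) and 3.44% of all. Of the 3 immunosubunit genes 0 had these letters, and Psme2 did not have them either. CACGTG, an E-box, was in 9.09% of member promoters and 7.15% of all. A match is a description of the letters only.

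Proteasome transcripts were abundant in every group, and all 14 constitutive core subunits, all 6 base ATPases and 47 of the 49 genes in oocytes passed the filter on low values, which was 1 TPM in at least 2 libraries of the table. Psmb8 and Psmb9 did not pass it in oocytes, and Psmb11, the thymus subunit, did not in spermatogonia. Among alpha subunits Psma6 had the highest mean over all oocyte libraries, 793 TPM, and Psma4 the lowest, 175 TPM. The order was not the same in each group: Psma2 was highest in the P5 and GO controls, and Psma1 was lowest in all 4 P10 NGO libraries. Beta subunits were spread more widely. Psmb2, a non-catalytic beta subunit, averaged 1641 TPM over the oocyte libraries, and the catalytic Psmb7 averaged 149 TPM. Psmb2 was the highest beta subunit in all 8 P1 and P5 libraries, and Psmb6, which carries the caspase-like site, was highest in all 4 P10 NGO libraries and 3 of 4 GO libraries. Psmb6 was also highest in the 4 spermatogonial libraries, with a mean of 1863 TPM, and Psmb7 was lowest there with 100.1 TPM. The 2 tables were normalised separately and no test was made across them.

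Subunits that share a particle were far from equal in TPM, though how far the exon lengths used account for this was not tested. The highest constitutive core subunit exceeded the lowest by 11.9-fold or more in every library of the 10 groups. The base ATPases, which are present in equal number in the ring, were closer together in the younger oocytes. Their highest to lowest ratio was 2.89 and 3.04 in P1 controls and 2.95 and 3.90 in P5 controls, and it was 11.1 and 25.5 in P10 NGO controls. Psmc2 at 1076 and 1287 TPM was then the highest ATPase, and Psmc1 at 152 and 50.4 TPM or Psmc4 at 97.3 and 107 TPM the lowest. Within the lid Psmd14, its deubiquitinase, averaged 488 TPM in oocytes and Psmd3, a structural lid subunit, averaged 10.4 TPM. Psmd2, a base scaffold that docks ubiquitin shuttle factors, averaged 1868 TPM in spermatogonia, the highest mean of its role there, while in oocytes Psmd4 led that role with 382 TPM. Assembly chaperones ranged from Psmd10 at 565 TPM to Psmg3 at 13.9 TPM in oocytes and from Psmg1 at 332 TPM to Psmg3 at 5.14 TPM in spermatogonia. Psmf1, an inhibitor of the core in vitro, averaged 26.6 TPM in oocytes and 61.1 TPM in spermatogonia.

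**Figure D1:**
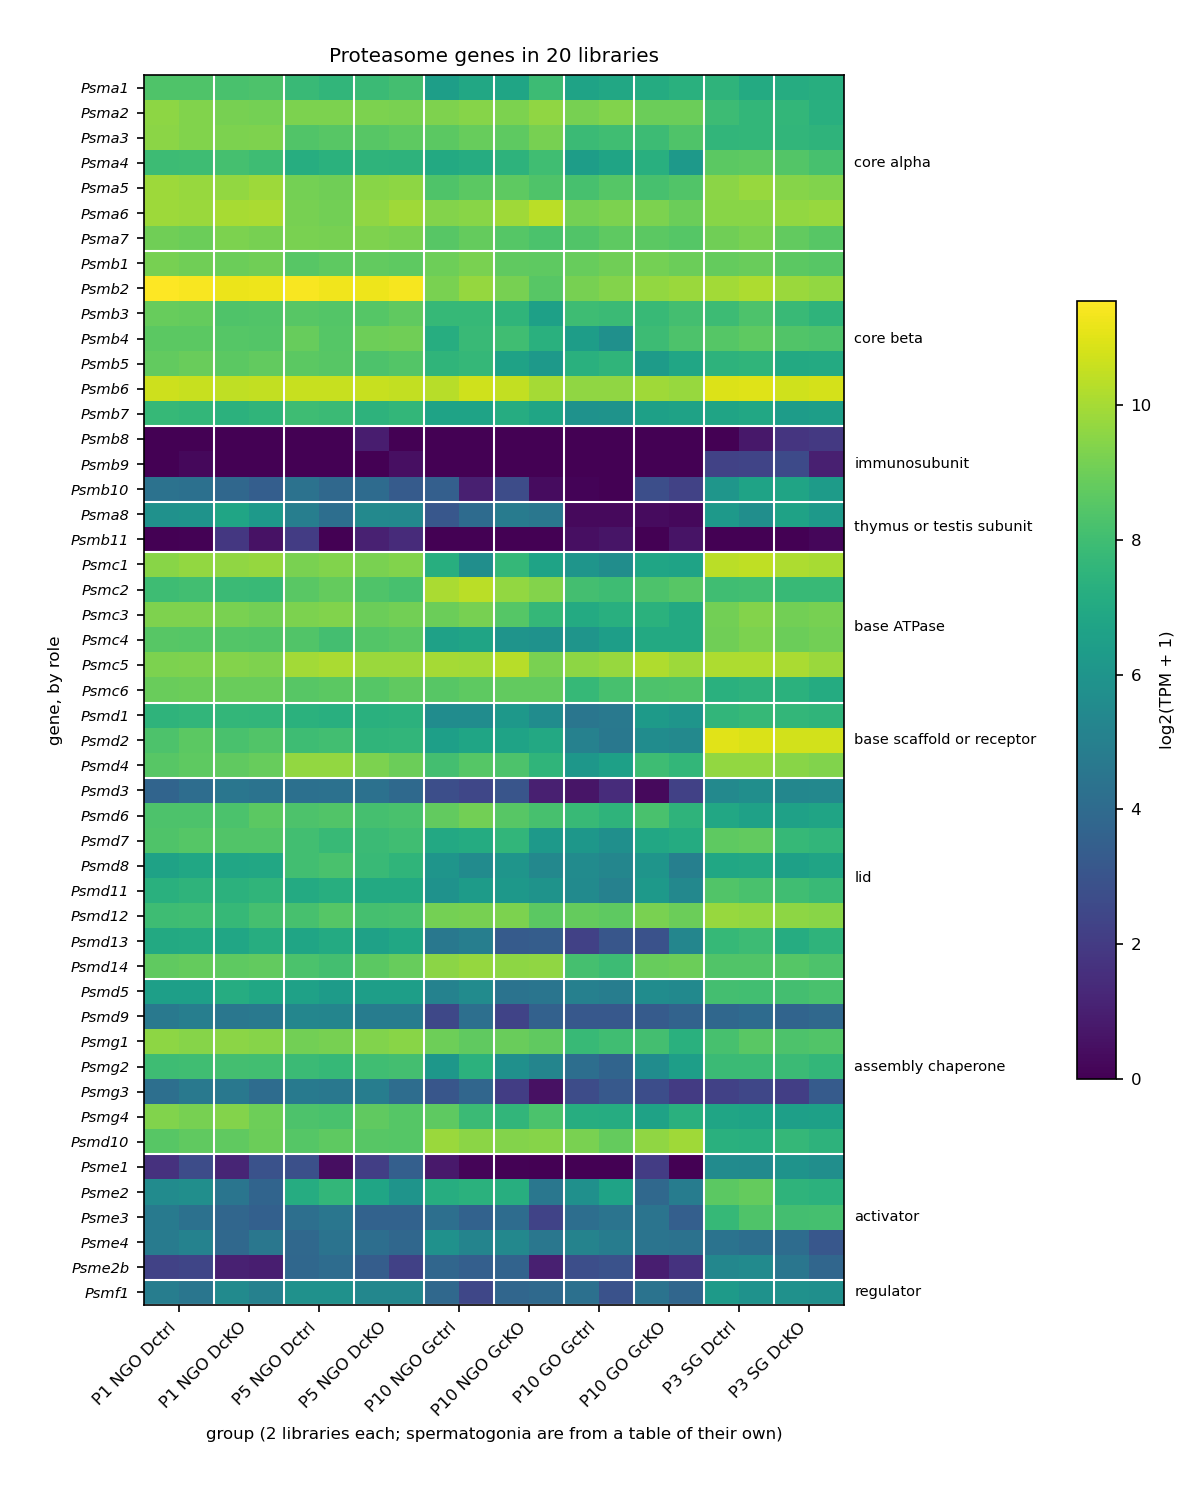
Colour gives log2(TPM + 1) of each of the 49 genes (rows, grouped by role) in each of the 20 libraries (columns, 2 per group). Psmb2 is brightest at P1 and P5, Psmb8 and Psmb9 are dark in oocytes, and most rows darken from P5 to P10 GO.

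Summed over the 49 genes, the proteasome took 1.92% and 1.89% of all TPM in P1 controls, 1.74% and 1.72% in P5 controls, 1.35% and 1.49% in P10 NGO controls and 0.850% and 0.889% in P10 GO controls. The values of these 4 control groups did not overlap and came in that order. The share of other gene sets with such an order was not counted. P5 and P10 controls also differ in Cre and in 1 Chd4 allele, which cannot be told apart from age. A share of TPM also depends on the scaling, as given below for GO against NGO. Spermatogonial controls had 1.88% and 1.96%. The 14 core subunits followed the order of the whole, with 1.05% to 1.11% at P1 and 0.458% to 0.502% in P10 GO controls. The lid did not. Its 8 genes summed to 0.171% to 0.178% at P5, 0.202% to 0.227% in P10 NGO controls and 0.0960% to 0.112% in P10 GO controls. Nor did the 6 base ATPases, at 0.3077% to 0.3202% at P1, 0.3302% to 0.3486% at P5 and 0.3211% to 0.341% in P10 NGO controls. The 7 assembly chaperones had 0.2104% to 0.2191%, 0.1623% to 0.1642% and 0.1656% to 0.193% in these groups. The base scaffold or receptor subunits were higher at P5 than at P1. Base and lid together had 0.5674% to 0.6038% at P1 and 0.5643% to 0.6195% in P10 NGO controls, which overlap.

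**Figure D2:**
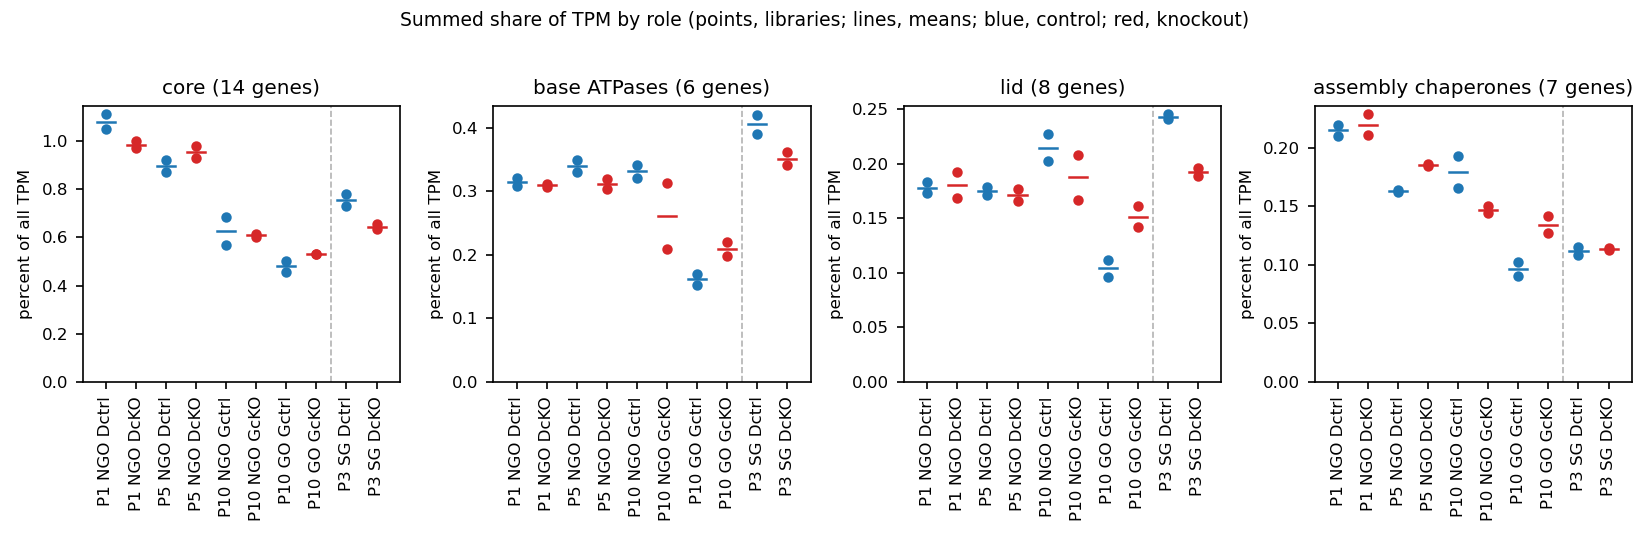
Each point is the summed share of all TPM, in percent, of the genes of a role in 1 library, for the 14 core subunits, 6 base ATPases, 8 lid subunits and 7 assembly chaperones over the 10 groups. Lines are means of 2 libraries, blue is control, red is knockout, and the dashed line parts the spermatogonia. Control GO lie lowest among the oocyte groups in all 4 panels, between 0.458% and 0.502% for the core.

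From P1 to P5 in Dctrl oocytes, 3 members rose and 4 fell of 47 tested, or 6.38% and 8.51%, beside 2.72% of all 20470 genes tested that rose and 1.98% that fell (limma, adjusted p under 0.05). The members that fell were mostly alpha subunits. Psma3 was at 751 and 663 TPM at P1 and at 340 and 370 TPM at P5, a log2 change of -0.99 (SE 0.19, limma adjusted p = 0.01127). Psma6 was at 937 and 900 TPM and then at 574 and 541 TPM (log2 -0.72). Psma5 was at 918 and 866 TPM and then at 566 and 534 TPM (log2 -0.70). Psmd14, the lid deubiquitinase, fell by 0.60 on the log2 scale. The risers were all of the regulatory particle. Psmd8, a lid subunit, was at 100.1 and 116 TPM at P1 and at 267 and 298 TPM at P5 (log2 1.38, SE 0.33, limma adjusted p = 0.03446). The ubiquitin receptor Psmd4 was at 375 and 413 TPM and then at 806 and 804 TPM (log2 1.03). Psmc2, a base ATPase, rose by 0.69 on the log2 scale. The median change of the members was -0.18 and that of all genes 0.01. None of the 7 calls held when any 1 of the 4 libraries was left out, where the count was 0 each time and 249 to 486 of all genes passed. When these 2 groups were fitted alone 16 members passed, as did 2358 of all 15301 genes then tested, against 962 of 20470 in the fit of all oocyte groups.

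P10 NGO controls differed from P5 NGO controls in 25 of 47 members. Of these, 6 were higher (12.8%) and 19 lower (40.4%), beside 5.54% of all genes higher and 17.1% lower. These controls also differ in Cre and in 1 Chd4 allele, which cannot be told apart from age here. All genes tested had a median of -0.47 on the log2 scale in this comparison and the members -0.89. With quantile normalization the 2 medians were 0.03 and -0.57, 24 members passed, 6 higher and 18 lower, and the genes higher among all calls went from 1135 of 4639 to 2219 of 4315.

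The differences ran both ways within a role. Among base ATPases Psmc1 was at 595 and 649 TPM at P5 and at 152 and 50.4 TPM in P10 NGO controls (log2 -2.81, SE 0.41, limma adjusted p = 0.0005184). Psmc2 was at 390 and 444 TPM and then at 1076 and 1287 TPM (log2 1.498, SE 0.15, limma adjusted p = 4.897e-05). Psmc4 was also lower, by -1.57. In the lid Psmd14 was higher, at 735 and 850 TPM against 306 and 274 TPM (log2 1.45), and so was Psmd12 (0.82). Psmd8 was lower, at 63.7 and 46.1 TPM against 267 and 298 TPM (log2 -2.36), as were Psmd13 (-2.14) and Psmd11 (-1.02). All 3 base scaffold or receptor subunits were lower, Psmd1 by -1.71, Psmd4 by -1.37 and Psmd2 by -1.35 on the log2 scale.

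In the core 1 beta subunit was higher, Psmb1 (0.47), and 5 were lower. Psmb2 was at 2778 and 2482 TPM at P5 and at 604 and 842 TPM in P10 NGO controls (log2 -1.88, SE 0.19, limma adjusted p = 4.41e-05). The other lower core subunits were Psmb7 (-1.22), Psmb4 (-1.17), Psmb5 (-0.96), Psmb3 (-0.74), Psma1 (-1.04), Psma5 (-0.61) and Psma7 (-0.54). Psmb6 was not called, at 1509 and 1517 TPM and then at 1282 and 1693 TPM. Among chaperones Psmd10 was higher (1.08), and Psmd9 and Psmd5, which assist base assembly too, were lower (-1.92 and -1.13). Psme4, the nuclear activator also known as PA200, was higher, at 56.5 and 35.9 TPM against 14.1 and 20.03 TPM (log2 1.37). Psmf1 was lower, at 14.1 and 4.57 TPM against 55.8 and 56.6 TPM (log2 -2.64). The median of the members was -0.73 without P10 NGO Gctrl replicate 1 and -0.58 without P5 Dctrl replicate 1, against -0.89 as reported. Calls were lost in both fits, that of Psmd9 among them. The value of Psmd9 was -1.07 without P10 NGO Gctrl replicate 1 and -2.78 without P10 NGO Gctrl replicate 2.

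Growing control oocytes at P10 had lower proteasome transcript levels than non-growing ones of the same genotype. Of 47 members 19 were lower (40.4%) and 0 higher, beside 13.2% of all genes lower and 11% higher. The median of the members was -0.64 and that of all genes 0. The calls came from each part of the constitutive proteasome: 1 alpha and 3 beta subunits, 3 base ATPases, 3 of 3 base scaffold or receptor subunits, 4 lid subunits and 4 chaperones. Psmc2 was at 270 and 247 TPM in GO against 1076 and 1287 TPM in NGO (log2 -2.18, SE 0.15, limma adjusted p = 2.228e-06). Psmg2, which with Psmg1 builds the alpha ring, was at 17.0 and 12.2 TPM against 67.8 and 169 TPM (log2 -2.81). Psmd14 was at 281 and 243 TPM against 735 and 850 TPM (log2 -1.59). For each of these 3 genes all GO control values lay below all NGO control values. This is no separate support, since they were picked by the test on the same libraries. The other members lower in GO were Psmd13 (-2.12), Psmd4 (-1.95), Psmc3 (-1.90), Psmd2 (-1.82), Psmb4 (-1.40), Psmd6 (-1.30), Psmg4 (-1.13), Psmd7 (-1.09), Psmd1 (-1.02), Psmg1 (-0.99), Psmb6 (-0.90), Psma3 (-0.82), Psmb7 (-0.78), Psmc6 (-0.66) and Psmd10 (-0.64), and the testis subunit Psma8 described with the alternative subunits. The result depends on the scaling. With median of ratios scaling 8 of these 19 members remained lower (Psma8, Psmg2, Psmc2, Psmd4, Psmc3, Psmd2, Psmd14 and Psmd6), 3 core subunits were higher (Psma7, Psmb3 and Psmb1), the median of the members was -0.07, and the higher genes went from 2257 of 4968 to 3131 of 4801 calls over all genes.

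In knockout GO at P10, 8 members rose and 1 fell against their controls, 17% and 2.13% of 47, beside 9.12% of all genes that rose and 4.69% that fell. The median of the members was 0.31 and that of all genes 0.06. The risers came from the core, base, lid and chaperones, and the estimates of all 6 base ATPases, all 3 base scaffold or receptor subunits and all 8 lid subunits were above 0, apart from 1 ATPase and 1 lid subunit with median of ratios scaling and 1 ATPase and 2 lid subunits with quantile normalization. With median of ratios scaling the members' median was 0.12, with 27 above and 20 below 0. With quantile normalization it was 0.23 (30 above and 17 below 0), and the genes higher among all calls went from 1866 of 2827 to 1759 of 3346.

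Psmb4, a non-catalytic beta subunit on chromosome 3 (94884093 to 94886961, GRCm38), was at 83.9 and 54.9 TPM in control GO and at 244 and 317 TPM in knockout GO. That was a 4.05-fold difference (log2 2.02, SE 0.28, limma adjusted p = 0.0005427). The core chaperone Psmg2 was at 17.0 and 12.2 TPM in controls and at 48.4 and 87.1 TPM in knockouts (log2 2.10, SE 0.39, limma adjusted p = 0.003288). Psmd1, a scaffold of the base, was at 22.2 and 24.7 TPM and then at 77.3 and 63.5 TPM (log2 1.54, SE 0.21, limma adjusted p = 0.0005195). All knockout values of these 3 genes lay above all control values. This is no separate support, since they were picked by the test on the same libraries. Psmd4, the ubiquitin receptor whose upstream stretch is printed above, was at 68.4 and 92.4 TPM in controls and at 249 and 198 TPM in knockouts (log2 1.47, SE 0.25, limma adjusted p = 0.002199). Psmd14, the deubiquitinase of the lid, was at 281 and 243 TPM and then at 461 and 498 TPM (log2 0.87, SE 0.14, limma adjusted p = 0.001277). These 5 genes passed the threshold in each of the 11 alternative analyses.

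The other 3 risers were less stable. Psmc4, a base ATPase, was at 62.9 and 87.6 TPM in control GO and at 127.6 and 127.9 TPM in knockout GO (log2 0.78, SE 0.19, limma adjusted p = 0.01514), and its call was lost in 5 of 11 alternatives. Psmd10, the base chaperone gankyrin, was at 603 and 455 TPM and then at 791 and 948 TPM (log2 0.72, SE 0.16, limma adjusted p = 0.01138), lost in 4. Psmb7, which carries the trypsin-like site, was at 58.6 and 60.6 TPM and then at 92.7 and 100.4 TPM (log2 0.69, SE 0.18, limma adjusted p = 0.02171), lost in 5. Several members fell just short. Psmd7, the lid partner of Psmd14, was at 69.0 and 53.3 TPM in controls and at 120 and 137 TPM in knockouts (limma adjusted p = 0.05648). Psmd2 had an estimate of 0.68 (limma adjusted p = 0.05821).

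Psmb5, which carries the chymotrypsin-like site and whose upstream stretch is printed above (gene at chromosome 14, 54614119 to 54618022), was the member that fell in both P10 knockouts. In GO it was at 160 and 185 TPM in controls and at 80.3 and 113 TPM in knockouts (log2 -0.84, SE 0.20, limma adjusted p = 0.01453). In NGO it was at 189 and 205 TPM in controls and at 99.2 and 73.0 TPM in knockouts (log2 -1.20, SE 0.20, limma adjusted p = 0.01326). In both oocyte classes all knockout values of Psmb5 lay below all its control values, though the share of all genes without overlap was not counted. The difference between its effects in GO and in NGO was 0.35 (95% interval -0.27 to 0.97, limma adjusted p = 0.5444). The GO call was lost without GO GcKO replicate 1 (-0.60), without GO Gctrl replicate 2 (-0.74) and when only the 2 GO groups were fitted. The NGO call was lost without NGO Gctrl replicate 2 and when only the 2 NGO groups were fitted. At P1 and P5 its estimates were -0.13 and -0.22, and in spermatogonia it was at 178 and 185 TPM in controls against 126 and 134 TPM in knockouts (log2 -0.48, limma adjusted p = 0.2271).

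In knockout NGO at P10, 0 members rose and 2 fell of 47 (0% and 4.26%), beside 1.02% of all genes that rose and 0.899% that fell. The second was Psmc3, a base ATPase, at 500 and 572 TPM in controls and at 361 and 207 TPM in knockouts (log2 -0.97, SE 0.22, limma adjusted p = 0.04997). Its call was lost in 6 of 11 alternatives and its value was -0.57 without NGO GcKO replicate 2. In these members the 2 NGO GcKO libraries differed from each other more than those of other groups: between them the median absolute log2 difference of the members was 0.51, and 10 members differed by over 1, while in the other 9 groups the median was 0.11 to 0.34. Over all genes this pair did not stand apart, with a median of 0.397 beside 0.279 to 0.441 in the other 9 groups. Without NGO GcKO replicate 1 the count was 12 calls, 2 of them higher (Psma1 and Psma6), and the calls over all genes went from 393 to 1260. Without NGO Gctrl replicate 2 it was 0, with 282 calls over all genes, and with only these groups fitted it was 0 of the members and 0 of all 11437 genes tested by limma. The alpha subunit Psma6 was at 673 and 721 TPM in controls and at 949 and 1289 TPM in knockouts and missed the threshold (log2 0.67, limma adjusted p = 0.05897). All 8 lid members (7 with median of ratios scaling) and all 7 chaperones had estimates below 0, though none passed, and 6 of 7 alpha subunits had estimates above 0. Over all members tested the median was -0.28, with 14 estimates above and 33 below 0. Without NGO GcKO replicate 2 the median was -0.02, with 23 above and 24 below 0, and without replicate 1 it was -0.40. The direction over the members thus depended on replicate 2.

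**Figure D3:**
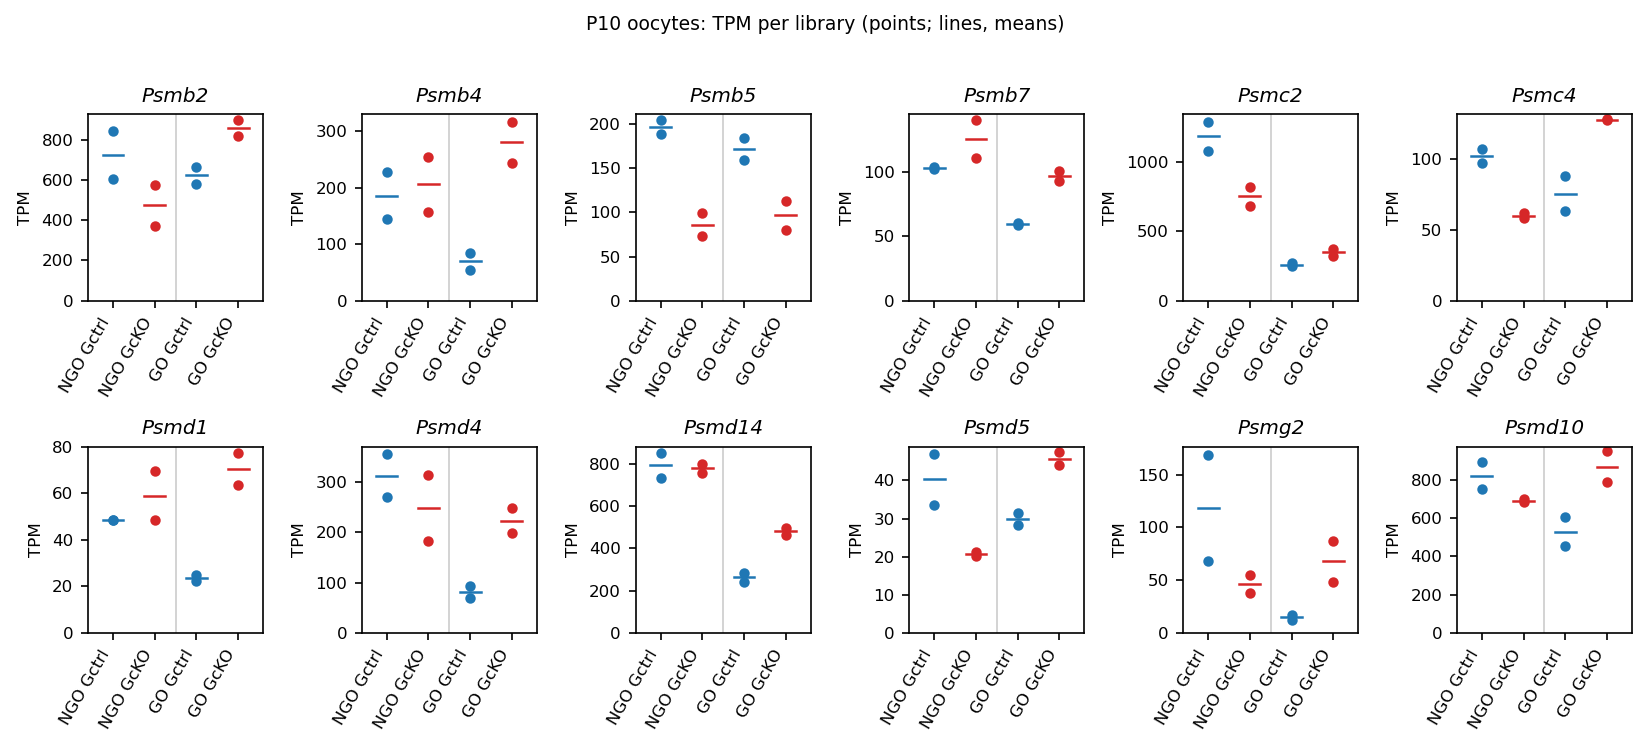
Points are TPM of 12 proteasome genes in each P10 library, lines are means of 2 libraries, blue is control and red is knockout, with NGO left and GO right of the grey line. Psmb4, Psmd1, Psmd4 and Psmg2 are lowest in control GO, and Psmb5 is lower in knockouts of both classes, at 73.0 to 113 TPM against 160 to 205 TPM in controls.

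The effect of the knockout differed between GO and NGO for 10 members, tested as an interaction in the same model. All 10 had a higher effect in GO (21.3% of 47, and 0 lower), beside 4.84% of all genes higher and 2.62% lower. Psmc4, for example, was lower in knockout than control NGO by estimate, at 61.5 and 58.2 against 97.3 and 107 TPM, and rose in knockout GO, with a difference of effects of 1.53 (SE 0.26, limma adjusted p = 0.004963). Psmd5, a base chaperone, was in NGO at 33.6 and 47.0 TPM without the knockout and at 20.2 and 21.3 TPM with it, and in GO at 31.5 and 28.4 TPM without it and at 47.5 and 44.0 TPM with it (1.502, SE 0.34, limma adjusted p = 0.01994). The values of all 10 are given with the results for a closer look. When only the 4 P10 groups were fitted, 0 members passed, and 385 of all 15197 genes did. The median difference of the members was 0.49, and 0.25 without NGO GcKO replicate 2, on which the NGO direction above depended. With median of ratios scaling 7 of the 10 passed as higher and Psma6 passed as lower, beside 1626 of all genes, 896 of them higher. With quantile normalization the genes higher among all calls of this test went from 990 of 1527 to 998 of 1892.

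At P1, 0 of 47 members passed in knockout against control NGO, beside 1.7% of all genes (limma, either direction), and 0 rose and 2 fell at an unadjusted p under 0.05. The median of the members was -0.05. All 7 beta subunits had estimates below 0, from -0.44 to -0.11, and all 5 activators did, from -1.54 to -0.12. At P5 likewise 0 of 47 passed, beside 1.36% of all genes, with 4 higher and 2 lower at an unadjusted p under 0.05. Psmd14 came closest, at 306 and 274 TPM in controls and at 397 and 469 TPM in knockouts (log2 0.58, SE 0.14, limma adjusted p = 0.07463). Psma6 was next, at 574 and 541 TPM and at 780 and 955 TPM (log2 0.63, limma adjusted p = 0.08911). Each of the 4 knockout values of these 2 genes was above the control values of its gene, though the share of all genes without overlap was not counted. For the difference between the P5 and P1 effects 0 members passed, beside 0.313% of all genes, and 2 were higher at an unadjusted p under 0.05. These counts stayed at 0 in each alternative analysis.

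In spermatogonia 0 of 48 members passed in knockout against control, as did 0 of all 18671 genes tested (0%) by limma, with 1 member higher and 8 lower, and 2073 genes higher and 931 lower, at an unadjusted p under 0.05. The estimates of the members lay mostly below 0, in 39 of 48, with a median of -0.21 where that of all genes was 0.09. They included all 7 beta subunits (-0.48 to -0.23), all 6 base ATPases (-0.31 to -0.11), all 8 lid subunits (-1.09 to -0.01, and 7 of 8 below 0 with quantile normalization) and 6 of 7 alpha subunits. Psmd7, a lid subunit, was at 415 and 442 TPM in controls and at 210 and 191 TPM in knockouts (log2 -1.09, SE 0.14, limma adjusted p = 0.09108). With a filter at 5 TPM it and Psme2 passed, at limma adjusted p = 0.0379 and 0.02575, beside 56 of all 12737 genes, 51 of them higher. Markers of other cells, given above, were higher in these knockout libraries.

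**Figure D4:**
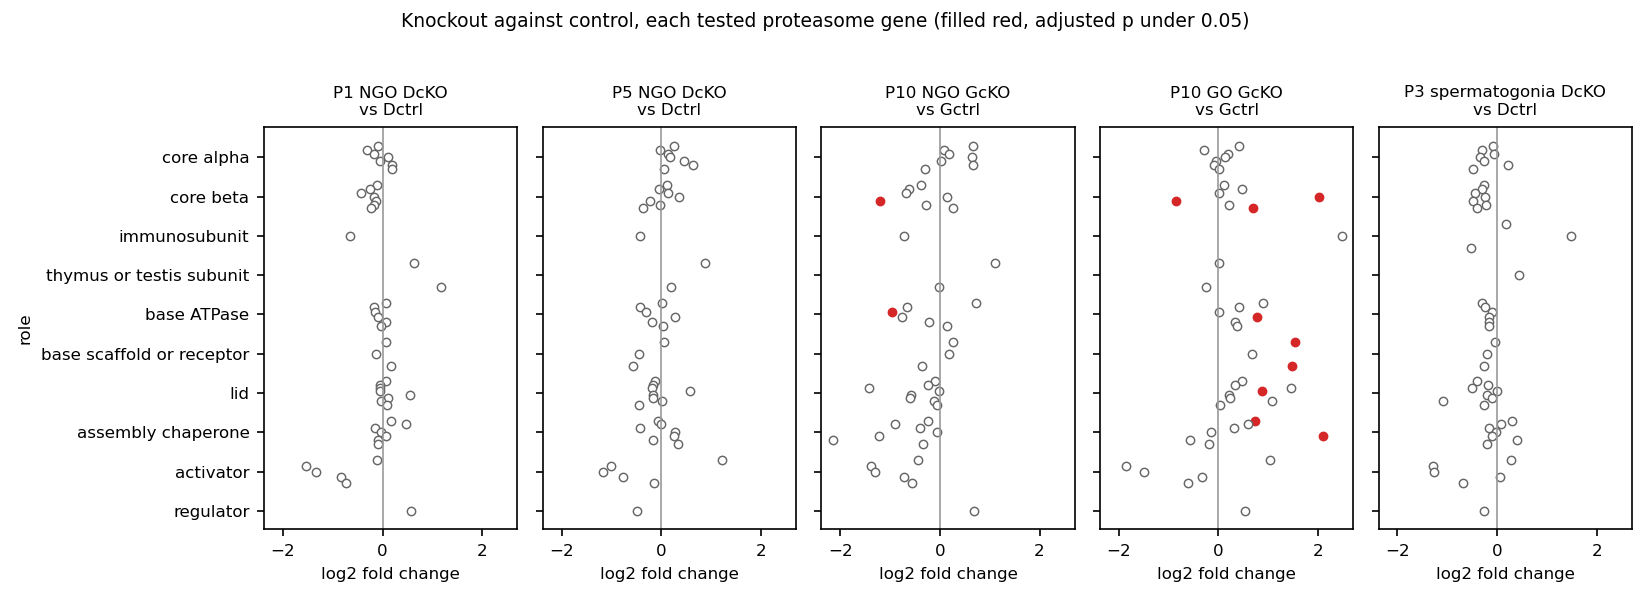
Each point is the log2 fold change, knockout over control on the log2(TPM + 1) scale, of 1 tested proteasome gene, by role, in the 5 knockout comparisons. Filled red points passed an adjusted p of 0.05: 2 in P10 NGO, 9 in P10 GO and 0 in the other 3 comparisons.

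The subunits that replace others in special proteasomes were at unlike levels in the 2 cell types and across the oocyte groups. Psma8, the alpha subunit of meiotic male germ cells, was at 74.2 and 51.7 TPM in spermatogonial controls and was detected in young oocytes too, at 56.4 and 59.2 TPM in P1 controls and at 29.4 and 17.0 TPM in P5 controls. It was at 7.85 and 15.3 TPM in P10 NGO controls and at 0.211 and 0.215 TPM in P10 GO controls. The last step had a log2 change of -3.31 (SE 0.39, limma adjusted p = 7.327e-05), on a scale that understates changes of such low values. Its level was below that of its paralog Psma7 in all groups, and its share of the pair was 9.70% and 10.6% in P1 controls and 0.0613% and 0.0523% in P10 GO controls. The knockout estimate passed in none of the 5 comparisons. It was 0.63 at P1, 0.87 at P5, 1.10 in P10 NGO and 0.45 in spermatogonia, with limma adjusted p from 0.1894 to 0.7088. In P10 GO, where the level was near 0, it was 0.015, and -0.028 with median of ratios scaling and -0.289 with quantile normalization. The P10 NGO libraries were at 7.85 and 15.3 TPM in controls against 26.9 and 22.8 TPM in knockouts. The estimate of Psma7 there was -0.29, with 372 and 445 TPM in controls against 356 and 309 TPM in knockouts (limma adjusted p = 0.33).

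Of the immunosubunits, Psmb10 was above 0 in 19 of the 20 libraries. It replaces Psmb7. Its share of the TPM of the Psmb7 and Psmb10 pair was 37.9% to 56.2% in the 4 spermatogonial libraries and 0% to 8.95% in the 16 oocyte libraries. The exon length is 1705 bases for Psmb10 and 3421 for Psmb7, so the share may depend on these lengths. In 19 of the 20 libraries, as given above, Psmb10 was above 0. In spermatogonia it was at 65.3 and 102 TPM in controls and at 107 and 78.7 TPM in knockouts, values that overlap. In GO it was at 0.0772 TPM and listed at 0 in the 2 controls and at 5.94 and 3.798 TPM in the knockouts, and missed the threshold (log2 2.48, SE 0.80, limma adjusted p = 0.06389), which it passed in 5 of 11 alternatives. Psmb8 and Psmb9, encoded in the major histocompatibility complex, were listed at 0 in nearly all oocyte libraries and reached at most 0.912 and 0.369 TPM. In spermatogonia Psmb8 was listed at 0 and at 0.650 TPM in controls and was at 2.40 and 2.75 TPM in knockouts, and Psmb9 was at 3.84 and 4.24 TPM and at 5.03 and 1.02 TPM. Psmb11, the thymus subunit, stayed at or below 3.16 TPM in all libraries.

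Psme2, a subunit of the interferon-inducible activator with Psme1, had the highest mean of the activators in both tables, and its knockout estimate lay below 0 in all 5 comparisons without passing in any. At P1 it was at 46.0 and 51.3 TPM in controls and at 21.2 and 12.2 TPM in knockouts (log2 -1.54, SE 0.68, limma adjusted p = 0.4604). At P5 it was at 139 and 198 TPM and at 108 and 62.5 TPM (-1.01, limma adjusted p = 0.6532). In P10 NGO it was at 145 and 165 TPM and at 148 and 23.1 TPM, which overlap (-1.38, limma adjusted p = 0.3665, and -0.06 without GcKO replicate 2). In the other 4 pairs of groups all knockout values lay below all control values. With 2 libraries a side this can occur without a true difference, and its share over all genes was not counted. In GO Psme2 was at 54.1 and 102 TPM and at 13.97 and 28.1 TPM (-1.86, limma adjusted p = 0.1012). In spermatogonia it was at 402 and 456 TPM and at 180 and 167 TPM (-1.30, SE 0.14, limma adjusted p = 0.07695). Its near copy Psme2b (chromosome 11, 48945354 to 48946190), with which its reads could be confused, had estimates of -1.33, -1.17, -1.31, -1.504 and -1.27 in the same order, none past the threshold. Without P10 NGO GcKO replicate 2 its P10 NGO value was 0.015. Since reads may be split between them, neither value is certain on its own. Psme1, the partner subunit, was low in oocytes, at 10.4 TPM or less and listed at 0 in both GO controls, and at 45.6 to 60.5 TPM in spermatogonia. Psme3, the nuclear activator, was at 211 to 331 TPM in spermatogonia and at 3.99 to 25 TPM in oocytes. Psme4 passed in no knockout comparison, with estimates from -0.73 to -0.14.

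**Figure D5:**
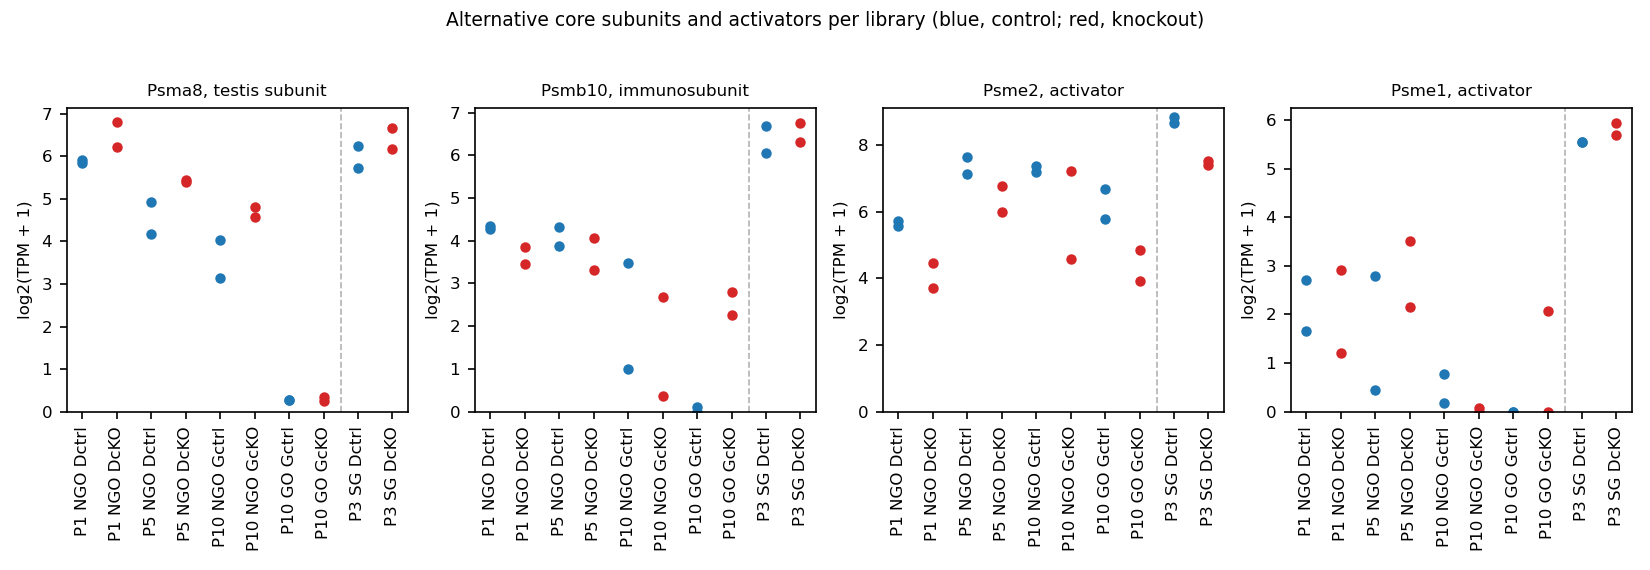
Points are log2(TPM + 1) of Psma8, Psmb10, Psme2 and Psme1 in each library over the 10 groups, blue for control and red for knockout, with spermatogonia right of the dashed line. Psma8 is near 0 in P10 GO and at 51.7 to 100.3 TPM in spermatogonia, and Psme2 is lower in knockouts of each pair but P10 NGO, where the groups overlap.

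Of 32 other genes of the pathway that were tested (ubiquitin genes, ubiquitin receptors, shuttle factors and regulators of proteasome synthesis), 0 rose and 1 fell in P1 knockouts, 0 passed in the P5, P10 NGO and spermatogonial knockouts, and 1 rose and 1 fell in knockout GO. Over all genes 1.7% passed at P1, and 9.12% rose and 4.69% fell in GO, where 1 of 32 each way is below those shares. Akirin2, needed for import of proteasomes into the nucleus, was the one that fell at P1, at 85.0 and 87.9 TPM in controls and at 24.2 and 41.1 TPM in knockouts (log2 -1.42, SE 0.25, limma adjusted p = 0.01327). That call was lost in 4 of 11 alternatives, where the value ranged from -1.793 to -1.055. Akirin2 fell in GO as well, at 567 and 550 TPM in controls and at 272 and 286 TPM in knockouts (log2 -0.999, SE 0.25, limma adjusted p = 0.01733), a call that was lost when any 1 of the 4 libraries was left out (limma adjusted p up to 0.08911). Vcp, the segregase that hands ubiquitinated proteins to the proteasome, rose in GO, at 12.97 and 9.83 TPM in controls and at 28.9 and 26.0 TPM in knockouts (log2 1.21, SE 0.27, limma adjusted p = 0.009562), and its call was lost in 2 of 11 alternatives, without GO Gctrl replicate 2 and when only the 2 GO groups were fitted.

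Between control groups the same list gave 0 higher and 2 lower from P1 to P5, beside 2.72% of all genes higher and 1.98% lower. It gave 4 higher and 10 lower in P10 NGO against P5 NGO controls, beside 5.54% and 17.1% of all genes. In GO against NGO controls, both at P10, it gave 1 higher and 7 lower, beside 11% and 13.2%. Pomp, the maturation factor of the core, fell from a mean of 442 to 298 TPM between P1 and P5 (log2 -0.56), was higher in P10 NGO controls at a mean of 741 TPM (1.31) and lower in GO at 290 TPM (-1.35). Uchl5, a deubiquitinase of the regulatory particle, had means of 101 TPM at P5, 429 TPM in P10 NGO and 120 TPM in GO controls (2.07 and -1.83). Adrm1, the receptor that recruits Uchl5, went the other way at the first step, from a mean of 221 TPM at P5 to 8.86 TPM in P10 NGO controls (-4.50). Rps27a, a ubiquitin fusion gene, was lower in GO (-1.05), as was Vcp (-1.50), and Sem1, a small lid subunit, was lower at P5 than at P1 (-0.74). The P1 to P5 calls of Pomp and Sem1 were lost when any 1 of the 4 libraries was left out.

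Of 10 tested genes of antigen processing, which the immunosubunits serve, 0 passed in the P1, P5 and P10 NGO knockouts. Over all genes 1.7% passed at P1 and 1.36% at P5, and in P10 NGO 1.02% rose and 0.899% fell. In knockout GO 3 of the 10 rose, beside 9.12% of all genes, and these 3 are named here after their values were seen. In controls 1 was higher at P5 than at P1, beside 2.72% of all genes. In P10 NGO 1 was lower than at P5, beside 17.1% of all genes, and 2 were lower in GO than in NGO, beside 13.2%. The class I heavy chain gene H2-K1 had a mean of 20.6 TPM in control GO and 126 TPM in knockout GO (log2 2.56, SE 0.24, limma adjusted p = 2.705e-05). H2-D1, another class I gene, was listed at 0 in both controls and had a mean of 7.77 TPM in knockouts, and Ifngr1, an interferon gamma receptor chain, had means of 0.186 and 5.71 TPM. The list did not move as one, with 7 estimates above and 2 below 0. B2m, also on it, was lower without passing, at 144 and 119 TPM in control GO and at 56.2 and 38.7 TPM in knockout GO. The H2-K1 call held in all 11 alternatives. That of H2-D1 was lost without either GO control library (limma adjusted p up to 0.05518), and that of Ifngr1 when any 1 of the 4 GO libraries was left out (up to 0.09296). In spermatogonia 0 of 13 passed, as did 0 of all 18671 genes tested.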

How the data were processed

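Gene levels were compared in 16 oocyte libraries and 4 spermatogonial libraries. The authors deposited TPM for each library, in 1 table per cell type. Per the submitters' processing notes, their tools included featureCounts 2.0.1, SAMtools 1.9, STAR 2.5.4b and Trimmomatic 0.39, and the build was GRCm38. Gene annotation and strand setting are not given in the sources used here. TPM times GENCODE M21 exon length gave values within 0.05 of whole reads for 98.7% to 99.2% of values under 20 reads per library.

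Each table was fitted separately with limma 3.58.1 (R 4.3.3): group means of log2(TPM + 1), moderated with a mean trend, two-sided, adjusted by Benjamini-Hochberg over 20470 genes in oocytes and 18671 in spermatogonia, those at 1 TPM or more in 2 or more libraries. The call threshold was 0.05. Where values are said to lie all above or all below others, 2 libraries stood against 2. The share of all genes without such overlap was not counted. The pipeline was tested on simulated data. Promoters, coordinates and figures used Python 3.11.15. Pseudocount, filter, scaling, groups fitted, replicate block and left-out libraries were varied.

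The members and the gene lists were chosen with earlier results of these data known. Genes named were the catalytic, immune, thymus and testis subunits with Psma7, the activators, up to 6 called members each way per comparison with a mean of at least 5 TPM, up to 4 called pathway genes per comparison, and the extremes of each role. The remaining called members, and Psma6, Psmd2, Psmd7 and Psmd14 where they were not called, were added after their values were seen. Of the pathway genes this rule names, 1 is not reported here.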

Additional observations from a re-analysis of the deposited data

Results flagged for a closer look

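The 10 proteasome genes below were picked out because the difference between the knockout effect in GO and that in NGO passed limma's test at P10. Each value is the log2 effect in GO minus that in NGO. The core chaperone Psmg2 had 3.32 (SE 0.55, limma adjusted p = 0.003904). Its NGO controls were at 67.8 and 169 TPM and its NGO knockouts at 54.7 and 37.7 TPM. Psmb4 had 1.88 (SE 0.40, limma adjusted p = 0.01605), with NGO controls at 144 and 228 TPM and NGO knockouts at 254 and 158 TPM, which overlap. The ubiquitin receptor Psmd4 had 1.83 (SE 0.36, limma adjusted p = 0.0104), with NGO controls at 270 and 357 TPM and NGO knockouts at 315 and 184 TPM, which overlap too. In these 3 genes the GO knockouts were above the GO controls.

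The base ATPases Psmc4 and Psmc2 had 1.53 and 1.07 (limma adjusted p = 0.004963 and 0.01311). Psmc2 went in NGO from 1076 and 1287 TPM without the knockout to 820 and 684 TPM with it, and in GO from 270 and 247 TPM to 318 and 373 TPM. The base scaffold Psmd1 had 1.28, the lid deubiquitinase Psmd14 0.89, the base chaperones Psmd5 and Psmd10 1.502 and 0.97, and the beta subunit Psmb2 1.09, with limma adjusted p from 0.01788 to 0.03095. Psmb2 went in NGO from 604 and 842 TPM to 576 and 371 TPM, and in GO from 578 and 666 TPM to 819 and 898 TPM. Psmd4, Psmc2, Psmc4 and Psmg2 passed in each analysis that left out 1 library, and none of the 10 passed when only the 4 P10 groups were fitted. The NGO and GO effects share no library.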

How the results depend on the processing

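Of 1471 alternatives for 131 values of named genes, 1243 kept their direction and side of the threshold, 194 lost a call, 26 gained one and 8 changed sign. Of the 131 values, 63 kept direction and side of the threshold in every alternative. A value that was not called could gain a call but not lose one. The sign changes were all in values not called. Psma8 in P10 GO (0.015 as reported) was -0.028 with median of ratios scaling, -0.289 with quantile normalization and -0.033 to 0.063 with 1 library left out. The others came with 1 library left out: Psme4 at P5 (-0.14 as reported, -0.38 to 0.10), Psme2b in P10 NGO (-1.31, and -2.64 to 0.015) and Psmb10 in spermatogonia (0.17, and -0.15 to 0.49). The count of members called in knockout P10 NGO was 2 as reported, beside 393 of all genes. It was 5 with a pseudocount of 0.1 (626 of all genes) and 5 with a filter at 5 TPM (428). It was 1 with no filter (211), 1 with the replicate block (341) and 4 with quantile normalization (939). When only these groups were fitted it was 0, as over all genes. With 1 library left out the median of the members, -0.28 as reported, was -0.40 to -0.02. In spermatogonia the filter at 5 TPM gave 2 in place of 0. From P1 to P5 the count of 7 was 16 when only these groups were fitted and 0 without any 1 library. Between P5 and P10 NGO controls the count of 25 was 13 to 23 without 1 library. Between GO and NGO controls the count of 19 was 11 with median of ratios scaling. The 10 members whose effects differed between GO and NGO were 0 when only the P10 groups were fitted and 4 to 17 without 1 library: 4 without GO Gctrl replicate 2, 6 without NGO Gctrl replicate 2 and 17 without NGO GcKO replicate 1. The cause was not tested. The knockout GO count of 9 stayed between 6 and 12. It was 6 with only these groups fitted, beside 1527 of all genes, and 12 with quantile normalization, beside 3346. Correlations of the replicate deviations between groups were -0.05 to 0.05, so the numbers do not pair the libraries; with the replicate block the counts were 0 at P1 and P5, 1 in P10 NGO, 10 in P10 GO, 0 in spermatogonia, 6, 24 and 20 for the 3 control comparisons, and 0 and 11 for the differences of effects. Over all genes the counts with the replicate block were 270, 204, 341, 2720, 0, 818, 4493, 4847, 37 and 1341 in the same order. Depth limits the values listed at or near 0 most.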
